A study of Mus musculus with 12 samples.

Results

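The constitutive proteasome is the main protease of the cytosol and nucleus, and its genes were followed here in cultured mouse microglia, the resident macrophages of the brain. Members were all listed genes whose symbol begins with Psma, Psmb, Psmc, Psmd, Psme, Psmf or Psmg and a digit, without the immunoproteasome subunits Psmb8, Psmb9 and Psmb10 and without pseudogene names. This gave 46 of the 14541 genes listed. The rule used gene names and no measured value, but it was set with earlier results of these data known. They comprised 8 α ring, 7 β ring, 6 ATPase and 11 non-ATPase subunits, 7 assembly chaperones, 5 activators and 1 inhibitor. Psmc3ip matched by name only, because its product is a cofactor of meiotic recombination. It was set apart in the counts by role but stayed among the 46 and in every count over all members. The cells were taken with CD11b magnetic beads from the forebrains of wild-type pups aged 7 to 9 days and plated at 40000 to 80000 per well. They received 500 nM recombinant Hevin, an extracellular protein secreted by astrocytes, or 50 ng/mL LPS, a bacterial glycolipid, or more Media as the control, each for 6 h. Each group held 4 polyA libraries numbered 1 to 4, and the 3 libraries of a number also share a group number in the deposited column names. Whether these were separate animals or cultures is not stated, and the p-values therefore describe the spread from library to library, which may be technical.

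The proteasome degrades proteins tagged with ubiquitin. Its 20S core is a barrel of stacked rings in which the outer α subunits gate the entrance and the inner β subunits Psmb5, Psmb6 and Psmb7 cut. The 19S regulatory particle caps the barrel, with an ATPase ring that unfolds substrates and a lid that removes ubiquitin. Alternative caps include PA28αβ, encoded by Psme1 and Psme2, PA28γ, encoded by Psme3, and PA200, encoded by Psme4. In macrophages, interferon γ raises PA28αβ and replaces the cutting subunits by Psmb8, Psmb9 and Psmb10, which changes the peptides made for presentation. When proteasome activity falls, the transcription factor encoded by Nfe2l1 raises the genes of nearly all subunits.

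Levels are given as FPKM, reads scaled to gene length and library size, and log2 fold changes ± SE as differences of log2(FPKM + 1), which understates the change of low genes. Depth was 18343996 to 27361665 reads in the listed genes per library. The deposited FPKM carry scaling factors of 0.804 to 0.897 in LPS and of 1.02 to 1.16 in Media and Hevin, so the same share of reads gives a higher FPKM in LPS. The microglia markers were all listed and summed to 781 to 1024 FPKM in Media, to 1349 to 1912 FPKM with Hevin and to 686 to 984 FPKM with LPS, although Tmem119 read at most 3.23. The libraries numbered 2 stood apart: the 4 neutrophil markers listed summed to 1878 to 2028 FPKM there and to 37.6 to 101 in the other libraries. The 7 astrocyte markers summed to 49.8 to 85.3 FPKM in Media, to 20.8 to 44.2 FPKM with Hevin and to 112 to 234 FPKM with LPS, with Gja1 alone at 47.6 to 74.6, 18.7 to 33.2 and 109 to 225 FPKM and Gfap at most 1.97. The 4 border macrophage markers summed to 750 to 877 FPKM in Media, to 521 to 719 FPKM with Hevin and to 628 to 785 FPKM with LPS. The 6 oligodendrocyte lineage markers listed summed to 11.4 to 14.8 FPKM in Media, 22.9 to 37.8 with Hevin and 7.79 to 9.90 with LPS, with no overlap. The 6 endothelial and mural markers summed to 23.7 to 105.5, 26.9 to 114.5 and 23.5 to 119.3 FPKM, which overlapped. The part of these cells in the results below was not tested, beyond the fits without number 2. In bulk RNA, fewer cells of a type and less RNA per cell cannot be told apart.

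Subunits that the particle holds in equal numbers differed widely in RNA level. Among 31 subunits of the core and the 19S particle, leaving out the testis subunit gene Psma8, the mean over all 12 libraries ran from 9.02 FPKM for Psma5 to 186 FPKM for the lid gene Psmd8, a 20.6-fold range. Psmb4 at 115 FPKM and Psma6 at 109 FPKM stood next below Psmd8. The libraries of Psmd8 lay above those of Psmb4 in every group, and those of Psmb4 and Psma6 overlapped. Psmb3 at 9.97 FPKM and Psma3 at 9.94 FPKM stood beside Psma5 at the low end, and the 4 libraries of each group overlapped between these 3 genes. Low levels went with sequence that other annotated genes share. In 8 subunits at least 20% of the 31-base words of the transcript also occurred in transcripts of other genes. These subunits stood at 9.02 to 49.1 FPKM (median 29.0). The other 23 stood at 16.9 to 186 FPKM (median 81.3). Spearman's rho between level and shared sequence was -0.66 across the 31 genes, a description over genes that share their libraries. How the authors treated reads that match several places is not given in the sources used here, so the levels of Psmb5, Psmb3, Psma5, Psma3, Psma4, Psmc1, Psmd2 and Psmd11 are uncertain. The lowest member was Psma8, at 0.513 ± 0.145 FPKM in Media, 0.679 ± 0.244 in Hevin and 0.276 ± 0.0801 in LPS (SD, n = 4), and it was the only member under the minimum of 1 FPKM in 4 libraries needed for testing.

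**Figure D1:**
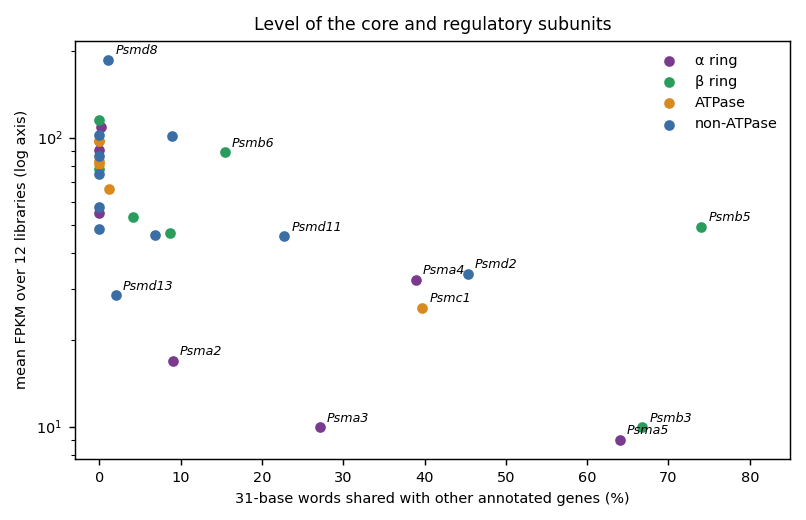
Mean level over the 12 libraries (FPKM, log axis) against the percentage of each transcript's 31-base words that other annotated genes share, for 31 core and regulatory subunits coloured by role. The 8 subunits at 20% or more lie between 9.02 and 49.1 FPKM, and the others between 16.9 and 186 FPKM.

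The comparison of LPS with Media asked how a bacterial stimulus changes these genes. Of 45 members tested, 21 rose and 0 fell (limma, adjusted p under 0.05), with 2 members lower at an unadjusted p under 0.05 and 0 with voom on recovered reads, while 13.2% of all 11242 genes tested were called higher and 12.6% lower. The members' median log2 fold change was 0.27, against -0.02 over all genes tested, and 38 of 45 values were positive. In 20 members every LPS library lay above every Media library, which held for 13.3% of all genes. In 2 members, Psmg3 and the name match Psmc3ip, every LPS library lay below, which held for 12.3%. The rises were modest: between 1.22 and 2.24 times in the means of the called members. With the replicate number as a block 26 members rose and 1, the chaperone gene Psmg2, fell, against 21.5% and 22.2% of all genes. Without the 3 libraries numbered 2 the count was 19 higher and 0 lower. On leaving out each of the 12 libraries in turn, 14 of the 21 members kept their call in every fit, and Psma2, Psma4, Psmd2, Psmd4, Psmd6, Psmd12 and Psme1 lost it in at least 1.

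The count depended on how libraries were scaled, and the direction of the median did too. With upper quartile scaling 14 members were higher and 1 lower, where 11.6% and 18% of all genes were. With quantile normalization 3 were higher and 1 lower, where 9.94% and 14.8% of all genes were. Without scaling factors 4 were higher and 8 lower, the name match Psmc3ip among the 8, where 6.55% and 44.4% of all genes were. The corresponding medians were 0.20, 0.01 and -0.05, while the medians of all genes were -0.08, -0.05 and -0.29, so the members stood 0.28, 0.06 and 0.25 above the other genes and 0.29 above them in the deposited scaling. As a share of all reads the members took 0.345% to 0.383% in Media, 0.332% to 0.364% with Hevin and 0.353% to 0.398% with LPS, and these ranges overlapped. Abundant genes as a class also read higher in LPS in the deposited scaling: among the 2333 genes with a mean of at least 30 FPKM the median was 0.15 and 29.4% were called higher, against 18 of 30 members of that level with a median of 0.30. Single genes turned too: of the 21 called members 0 had a negative value with upper quartile scaling, 5 with quantile normalization (Psmc2, Psmc5, Psmd4, Psmd7 and Psmd12) and 6 without scaling factors (Psma4, Psmc5, Psmd2, Psmd4, Psmd6 and Psmd12). The 2 members called higher under all 4 scalings were the chaperone gene Psmd10 and the activator gene Psme2, and the block added Psme1 and Psme2b.

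**Figure D2:**
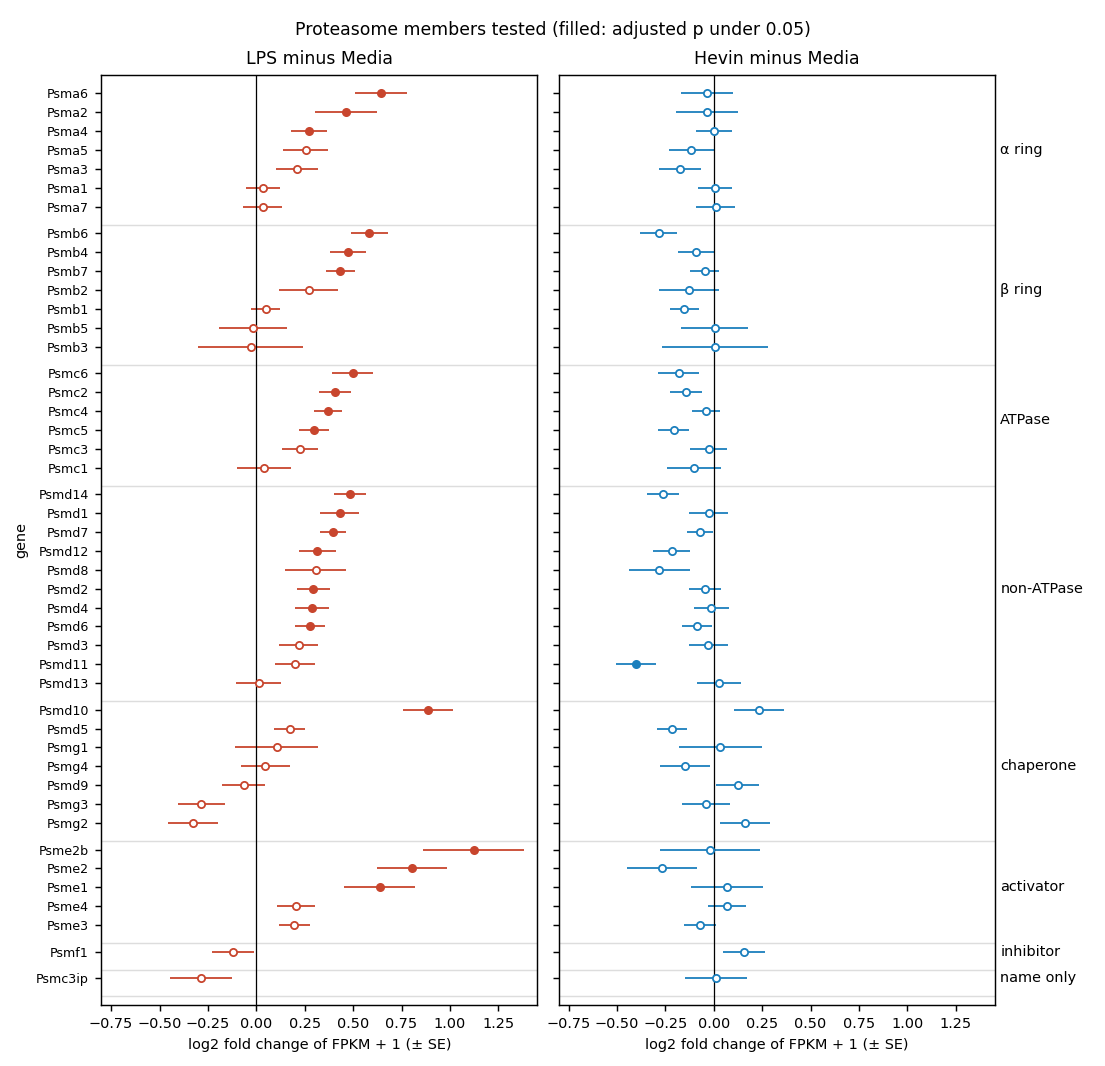
Log2 fold change of FPKM + 1 (± SE, 4 libraries a group) of the 45 members tested, by role, for LPS minus Media and Hevin minus Media, with filled points for adjusted p under 0.05 in the deposited scaling. In LPS 21 points are filled, all to the right of 0, and in Hevin 1 is filled, Psmd11, to the left.

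**Figure D3:**
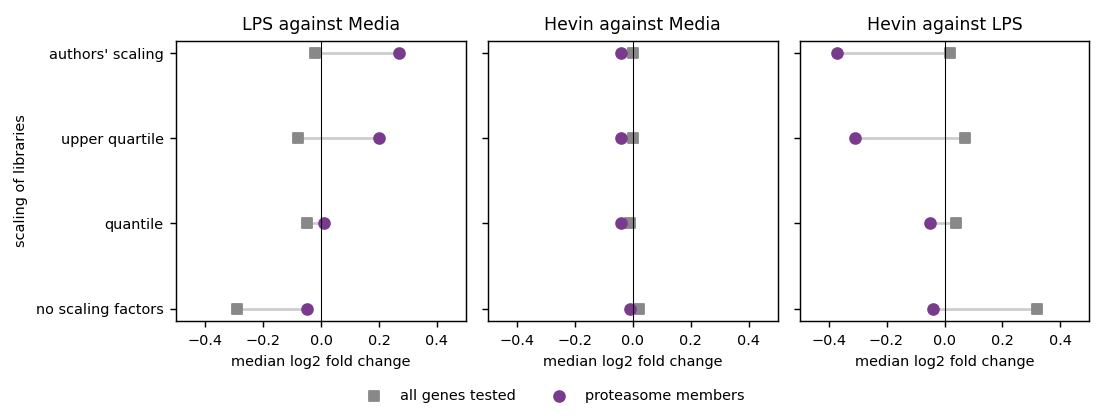
Median log2 fold change over the 45 members (circles) and over all 11242 genes tested (squares) in each comparison under 4 scalings of the libraries. For LPS against Media the members' median runs from 0.27 in the deposited scaling to -0.05 without scaling factors, and lies right of the median of all genes in each.

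Promoters of the members shared one short motif more often than promoters at large. The set of RefSeq promoters used (GRCm38.p6) held a start site for 38 of the 46 members. Psma8, Psmb1, Psmb2, Psmb7, Psmc3, Psmd3, Psmd7 and Psmg2 were not in that set. The 250 bases before each start site were searched on both strands for 5 motifs. A member counted if any of its start sites had the motif, while the share of all promoters counts each start site by itself. Psmc2, Psma6 and Psme2 had 2 start sites each, and Psma6 had the ETS site at only 1 of them. The ETS site, letters CCGGAAG, occurred in 13 of 38 members (34.2%) and in 6.9% of 32851 promoters of all genes. The share among genes expressed in these cells, or among genes of like level, was not taken. The antioxidant response element core, letters TGACNNNGC, occurred in 5 members (13.2%) and in 10.2% of all promoters. An interferon gamma activated site core, letters TTCNNNGAA, was found in 1 member (2.6%, against 7.0%), the interferon-stimulated response element core in 3 (7.9%, against 3.0%) and the CCAAT box, letters CCAAT, in 13 (34.2%, against 33.8%). Presence of the ETS site did not separate the members by call: 7 of 19 members that rose in LPS had it and 6 of 19 of the others. The 4 stretches below are shown as 2 pairs that hold the same motif. In the first pair Psmb6 rose in LPS and Psmb5 did not. Against Media the second pair, Psmd2 and Psmd11, was called in different comparisons, Psmd2 higher in LPS and Psmd11 lower in Hevin. Their log2 fold changes were 0.29 and 0.20 in LPS against Media, and -0.05 and -0.40 in Hevin against Media. With the block both were called higher in LPS than in Media (limma adjusted p = 0.0119 and 0.0366). In Hevin against LPS both were called lower, at -0.34 and -0.60 (limma adjusted p = 0.0071 and 7.45e-04). There Psmd2 lost its call with quantile normalization (0.232) and without scaling factors (0.958), and Psmd11 kept it under all 4 scalings. The stretches lie at chr11:70525107-70525356 (plus strand, Psmb6), chr14:54617996-54618245 (minus strand, Psmb5), chr16:20651402-20651651 (plus strand, Psmd2) and chr11:80428365-80428614 (plus strand, Psmd11), and run 5′ to 3′ toward the start site. Capitals mark the antioxidant response element core in the first pair and the ETS site, here on the reverse strand, in the second.
Psmb6: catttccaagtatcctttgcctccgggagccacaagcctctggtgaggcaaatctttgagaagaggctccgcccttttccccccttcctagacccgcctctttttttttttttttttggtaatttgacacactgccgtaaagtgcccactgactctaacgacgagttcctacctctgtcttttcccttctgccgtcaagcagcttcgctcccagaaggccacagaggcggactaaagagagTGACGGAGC
Psmb5: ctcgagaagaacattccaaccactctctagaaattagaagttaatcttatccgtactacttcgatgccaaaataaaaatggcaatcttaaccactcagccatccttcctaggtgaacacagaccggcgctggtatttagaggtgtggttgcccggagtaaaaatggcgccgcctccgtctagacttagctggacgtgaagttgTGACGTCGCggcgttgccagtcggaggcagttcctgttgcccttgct
Psmd2: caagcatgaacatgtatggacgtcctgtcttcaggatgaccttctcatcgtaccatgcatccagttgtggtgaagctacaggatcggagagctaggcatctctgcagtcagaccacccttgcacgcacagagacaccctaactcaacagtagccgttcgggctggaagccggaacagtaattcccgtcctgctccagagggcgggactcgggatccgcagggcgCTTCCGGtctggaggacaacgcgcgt
Psmd11: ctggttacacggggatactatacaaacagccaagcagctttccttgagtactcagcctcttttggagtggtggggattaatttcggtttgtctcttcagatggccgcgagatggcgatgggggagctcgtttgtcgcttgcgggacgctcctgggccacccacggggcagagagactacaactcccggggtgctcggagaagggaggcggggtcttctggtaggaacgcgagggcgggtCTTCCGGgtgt
A match is a description of these letters and no evidence of binding.

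Among the activators the PA28αβ genes moved and the others did not pass the test: 3 of 5 rose in LPS in the deposited and in upper quartile scaling, 1 with quantile normalization and 2 without scaling factors. Psme1, which encodes PA28α (chr14:55578123-55581529, GRCm38, 11 exons), read 26.6, 19.7, 25.4 and 27.6 FPKM in Media 1 to 4 and 39.1, 29.3, 42.2 and 46.8 FPKM in LPS 1 to 4. Every LPS library lay above every Media library, and number 2 was the lowest in each group. The log2 fold change was 0.64 ± 0.19 (limma adjusted p = 0.0252, and 6.94e-05 with the block). The call ended without Media 2 (adjusted p = 0.0678), without LPS 3 (0.0620) and without LPS 4 (0.0736), with quantile normalization (0.108) and without scaling factors (0.205).

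Psme2 (chr14:55587441-55591113), the annotated gene of PA28β, and Psme2b (chr11:48945354-48946190), a copy with 1 exon, shared 66.2% and 78.4% of their 31-base words with other transcripts. Of words of 100 bases, 44.5% of those in Psme2 and 52.0% of those in Psme2b also occurred in the other gene of this pair. Psme2 read 5.1, 4.12, 3.95 and 4.86 FPKM in Media and 8.49, 5.49, 11.1 and 10.3 FPKM in LPS, and Psme2b read 87.7, 60.6, 107 and 83.2 FPKM in Media and 178, 112, 224 and 245 FPKM in LPS. In both genes the groups did not overlap, and LPS 2 was the lowest LPS library. Psme2 rose by 0.81 ± 0.18 on the log2 scale (limma adjusted p = 0.00652), also under each of the other 3 scalings. Psme2b rose by 1.12 ± 0.26 (limma adjusted p = 0.00784, and 3.45e-06 with the block), the largest change of all members, and missed the threshold with quantile normalization (0.68, adjusted p = 0.0868). Psme2 took 3.75% to 4.39% of the reads of both genes in LPS and 3.3% to 5.90% in Media. How reads were divided between these copies is not given, so the split is uncertain and their changes are not separate observations. Psme2b also overlaps exons of 9930111J21Rik1 on the same strand.

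The other caps did not pass the test. Psme3 stood at 38.3 ± 2.44 FPKM in Media and 44.0 ± 3.64 in LPS (0.20 ± 0.08 on the log2 scale, limma adjusted p = 0.0992), and Psme4 at 37.4 ± 3.74 and 43.2 ± 4.15 FPKM (0.20 ± 0.10, adjusted p = 0.149, and 0.0238 with the block). Both values turned negative, to -0.12, without scaling factors. Psmf1, whose product PI31 inhibits the core in the test tube, stood at 4.29 ± 0.447 FPKM in Media and 3.86 ± 0.268 in LPS (-0.12 ± 0.11, adjusted p = 0.467). Without scaling factors it was called lower (-0.38, adjusted p = 0.0263).

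**Figure D4:**
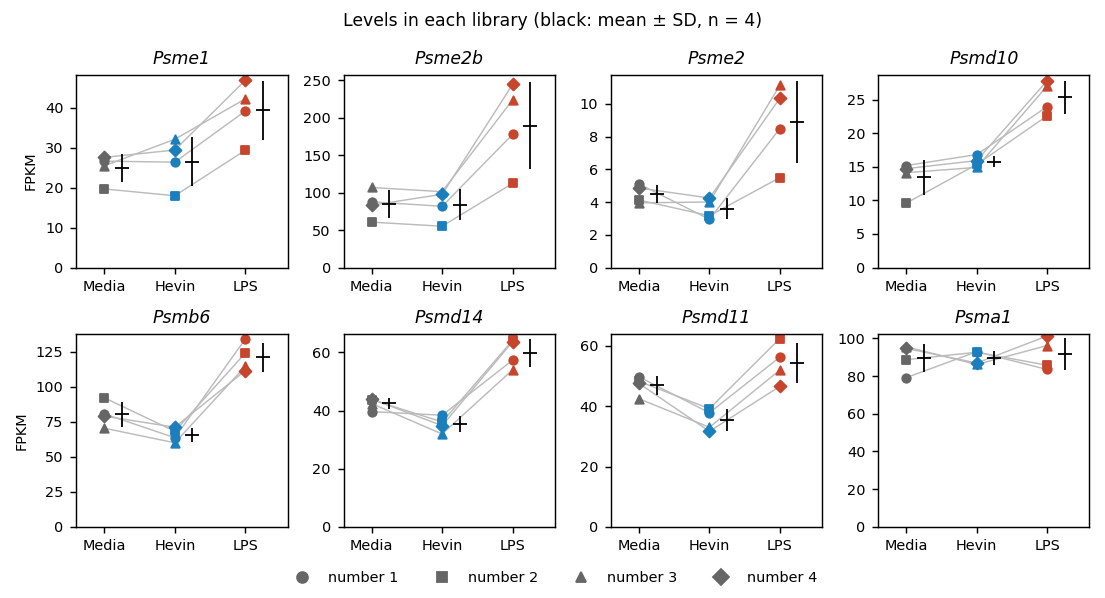
FPKM in each library of 8 members in Media, Hevin and LPS, with grey lines joining libraries of the same number and black marks for the mean ± SD (n = 4). In LPS the first 6 genes lie above all 4 Media libraries, in Hevin Psmd11 lies below them, and Psma1 overlaps in all groups.

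In the β ring 3 of 7 genes rose in LPS, against 3, 0 and 1 with upper quartile scaling, quantile normalization and no scaling factors, and these 3 included 2 of the 3 cutting subunits. Psmb6 (chr11:70525367-70527858), which cuts after acidic residues, read 80.6, 92.0, 70.3 and 78.9 FPKM in Media and 133.9, 123.9, 114 and 111 FPKM in LPS. The groups lay well apart. It rose by 0.58 ± 0.10 on the log2 scale (limma adjusted p = 0.00104), by 0.26 without scaling factors (0.0263), and had 0.19 with quantile normalization (0.136). Psmb7, which cuts after basic residues, read 49.6, 44.7, 47.8 and 50.0 FPKM in Media and 62.9, 73.7, 62.6 and 62.0 FPKM in LPS. It rose by 0.43 ± 0.08 (limma adjusted p = 0.00142), but had 0.18 with quantile normalization (0.112) and 0.11 without scaling factors (0.272). Psmb5, which cuts after hydrophobic residues, read 51.5, 33.9, 54.6 and 58.6 FPKM in Media and 54.7, 48.5, 55.2 and 36.5 FPKM in LPS, and these values overlapped. Its log2 fold change was -0.02 ± 0.17 (limma adjusted p = 0.965), with -0.23 under quantile normalization (0.420) and -0.34 without scaling factors (0.157). The non-cutting Psmb4 rose from 103.9 ± 8.68 to 145 ± 15.6 FPKM (0.47 ± 0.09, adjusted p = 0.00290), and had 0.03 with quantile normalization (0.874) and 0.15 without scaling factors (0.297). Psmb1 (47.9 and 49.6 FPKM), Psmb2 (75.2 and 91.0) and Psmb3 (9.98 and 10.1) were not called in the deposited scaling, and Psmb1 was called lower without scaling factors (-0.27, adjusted p = 0.0307).

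The α ring had 3 of 7 genes higher in LPS in the deposited scaling, 1 with upper quartile scaling and 0 with the other scalings. Psma6 read 82.8, 101, 99.2 and 85.3 FPKM in Media and 141.5, 110.1, 153.5 and 179 FPKM in LPS, with LPS 2 just above the highest Media library. It rose by 0.64 ± 0.13 (limma adjusted p = 0.00449), and had 0.20 with quantile normalization (0.325) and 0.32 without scaling factors (0.0886). Psma2 had an adjusted p of 0.0495 (0.46 ± 0.16), and its groups overlapped. That call ended without number 2 (0.172), with voom on recovered reads (0.0622) and without any one library except LPS 1 and Media 1 (0.0526 to 0.131). Psma4 also passed, at 30.1 ± 1.62 and 36.7 ± 4.48 FPKM (0.27 ± 0.09, adjusted p = 0.0462), and lost its call with voom on recovered reads (0.0534) and without any one library except LPS 1 and LPS 2 (0.0562 to 0.126). Its log2 fold change was -0.05 without scaling factors. Psma1 stood at 89.5 ± 7.52 FPKM in Media and 91.7 ± 8.46 in LPS (0.03 ± 0.09, adjusted p = 0.828), but was called lower with quantile normalization (-0.32, 0.0307) and without scaling factors (-0.29, 0.0320).

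Ratios within a library do not depend on a factor that scales the whole library, although quantile normalization, which is no such factor, can change them. The ratios below are of deposited FPKM. Psmb6 relative to Psma1 was 1.02, 1.04, 0.736 and 0.833 in Media 1 to 4 and 1.6, 1.44, 1.19 and 1.10 in LPS 1 to 4. Psmd10 relative to Psma1 was 0.108 to 0.192 in Media and 0.264 to 0.287 in LPS, and Psmd14 relative to Psma1 was 0.444 to 0.501 and 0.562 to 0.748. In each of these 3 ratios all LPS libraries lay above all Media libraries. Both genes of each ratio were chosen after their values were seen, so the ratios carry no test, and a ratio shows unequal change rather than which gene changed.

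The replacement of cutting subunits was followed by the ratio of each immunoproteasome gene to its constitutive partner in the same library. Psmb8 to Psmb5 was 0.654, 0.403, 0.720 and 0.554 in Media, 0.755, 0.335, 1.07 and 0.877 in Hevin and 1.39, 0.469, 1.47 and 2.16 in LPS. Number 2 was the lowest in each group. Within numbers, this ratio was higher in LPS than in Media in 4 of 4 and lower in Hevin than in LPS in 4 of 4. Psmb9 to Psmb6 averaged 0.0471 ± 0.00686 in Media, 0.0909 ± 0.0482 in Hevin and 0.0770 ± 0.0224 in LPS, and Psmb10 to Psmb7 averaged 0.208 ± 0.0597, 0.283 ± 0.118 and 0.350 ± 0.175 (SD, n = 4). LPS was above Media in 4 of 4 numbers for Psmb9 to Psmb6 and in 3 of 4 for Psmb10 to Psmb7, and Hevin was above Media in 3 of 4 for each of the 3 ratios. In the 9 comparisons of these ratios the exact two-sided permutation p was 0.114 to 0.83, and 0.429 to 0.83 after adjustment over the 9, where 4 against 4 libraries can reach 0.0286. This test does not use the pairing by number, and an exact test on 4 pairs could not go below 0.125. Of the 3 immunoproteasome genes, Psmb9 rose in LPS, from 3.76 ± 0.437 to 9.22 ± 2.39 FPKM (by 1.07 ± 0.29 on the log2 scale, limma adjusted p = 0.0192). That call ended without LPS 3 (0.0520), without LPS 4 (0.0514) and without scaling factors (0.0504). Psmb8 (29.8 ± 11.2 and 64.7 ± 28.0 FPKM, adjusted p = 0.139) and Psmb10 (10.1 ± 3.10 and 22.1 ± 10.4 FPKM, adjusted p = 0.135) passed with the block (3.58e-05 and 2.77e-04), without number 2 (0.00136 and 4.11e-04) and without LPS 2 (0.0255 and 0.0130). The part of the neutrophil RNA of number 2 in these values was not tested.

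**Figure D5:**
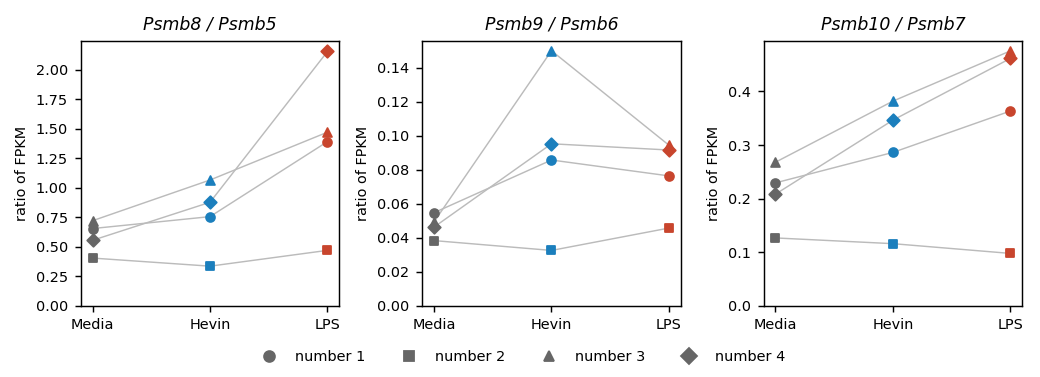
Ratio of FPKM of each immunoproteasome gene to its constitutive partner in every library, with lines joining libraries of the same number. The libraries numbered 2 are the lowest of each group in all 3 panels.

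In the 19S particle 4 of 6 ATPase genes and 7 of 11 non-ATPase genes rose in LPS in the deposited scaling. These counts were 3 and 3 with upper quartile scaling, 0 and 1 with quantile normalization, and 0 and 0 without scaling factors. Among the ATPases, which thread the substrate into the core, Psmc6 read 53.0, 66.3, 66.0 and 57.0 FPKM in Media and 78.9, 82.7, 82.3 and 99.7 FPKM in LPS, with no overlap (0.50 ± 0.11, limma adjusted p = 0.00476). Psmc2, Psmc4 and Psmc5 also rose, with log2 fold changes of 0.41 ± 0.08, 0.37 ± 0.07 and 0.30 ± 0.08 in the deposited scaling, but Psmc2 had -0.01 and Psmc5 -0.11 with quantile normalization, and Psmc5 had -0.03 without scaling factors. Psmc3 (78.9 and 92.9 FPKM) was called with the block alone (adjusted p = 0.102 without it and 0.0259 with it), and Psmc1 (26.1 and 27.0 FPKM) in neither fit. Psmd14, the lid protease that removes ubiquitin chains, read 39.7, 43.8, 42.4 and 44.0 FPKM in Media and 57.3, 64.1, 54.0 and 63.7 FPKM in LPS. It rose by 0.48 ± 0.08 (limma adjusted p = 0.00141), with 0.24 under quantile normalization (0.0410) and 0.16 without scaling factors (0.11). The scaffold gene Psmd1 rose by 0.43 ± 0.10 and the lid gene Psmd7, partner of Psmd14, by 0.40 ± 0.07, although Psmd7 had -0.02 with quantile normalization. Psmd2, Psmd4, Psmd6 and Psmd12 rose by 0.28 to 0.31 in the deposited scaling. All 4 lost their calls with upper quartile scaling (adjusted p 0.0577 to 0.154) and had -0.01 to -0.05 without scaling factors. Psmd3, Psmd8 and Psmd11 were not called without the block (0.132, 0.183 and 0.185) and were called higher with it (0.0263, 0.00484 and 0.0366), with Psmd3 and Psmd8 higher in LPS in 4 of 4 numbers and Psmd11 in 3. Psmd13 was called in neither fit, at 28.1 ± 1.44 FPKM in Media and 28.7 ± 4.84 in LPS.

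The summed FPKM of the core was 680 to 736 in Media, 654 to 694 with Hevin and 851 to 936 with LPS, and that of the 19S particle 1143 to 1301, 1039 to 1139 and 1445 to 1590. The ratio of the second sum to the first, which a single factor per library does not touch, was 1.68 ± 0.117 in Media, 1.61 ± 0.0540 in Hevin and 1.66 ± 0.0852 in LPS, and the groups overlapped.

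The assembly chaperones did not move as one group. In LPS 1 of 7 rose under each of the 4 scalings, while 0, 1, 0 and 3 fell with the deposited scaling, upper quartile scaling, quantile normalization and no scaling factors. The gene that rose was Psmd10 (chrX:140948429-140956728, 5 exons), which encodes gankyrin, a chaperone of the ATPase ring. It read 15.2, 9.61, 14.1 and 14.7 FPKM in Media, 16.8, 15.4, 14.9 and 15.9 in Hevin and 24, 22.6, 27.1 and 27.8 in LPS. Every LPS library lay above every other library. The log2 fold change was 0.89 ± 0.13 (limma adjusted p = 4.16e-04) and 0.57 to 0.82 under the other scalings (adjusted p at most 0.00447). The other chaperones of the ATPase ring were not called: Psmd5 stood at 43.9 and 49.6 FPKM and Psmd9 at 6.2 and 5.85. Of the chaperones of the core, Psmg1 and Psmg4 stood at 5.34 and 5.71, and at 7.97 and 8.22 FPKM. Psmg2 had a log2 fold change of -0.33 ± 0.13 (5.13 and 3.90 FPKM, adjusted p = 0.0835, and 0.0255 with the block) and Psmg3 one of -0.28 ± 0.12 (8.93 and 7.22 FPKM, adjusted p = 0.111).

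The comparison of Hevin with Media asked whether the astrocyte protein changes the same genes, and it shares the Media libraries with the comparison above. Of 45 members 0 rose and 1 fell (limma, adjusted p under 0.05), where 4.27% of all genes tested were called higher and 3.1% lower. At an unadjusted p under 0.05, 0 were higher and 6 lower, and voom on recovered reads called 0 and 1. The members' median was -0.04, against 0.00 for all genes tested, and 31 of 45 values were negative. In 5 members every Hevin library lay below every Media library, which held for 7.55% of all genes, and in 0 every Hevin library lay above, which held for 9.05%. The counts of 0 and 1 were the same under the other scalings, where 4.74% and 3.59% (upper quartile), 4.71% and 3.9% (quantile) and 5.62% and 3.18% (no scaling factors) of all genes were called higher and lower.

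The member that fell was Psmd11 (chr11:80428615-80473248, 14 exons), a lid subunit linked to proteasome assembly. It read 49.7, 48.2, 42.5 and 47.5 FPKM in Media, 37.8, 39.2, 33.0 and 31.7 in Hevin and 56.3, 62.4, 52.0 and 46.6 in LPS. Every Hevin library lay below every library of the other groups. The log2 fold change against Media was -0.40 ± 0.10 (limma adjusted p = 0.0362), and the gene was called under all 4 scalings. The call ended without any one of Hevin 1, Hevin 3, Hevin 4, Media 1, Media 2 and Media 4 (adjusted p 0.0530 to 0.114) and without number 2 (0.0536). With the block it had an adjusted p of 0.00201, and 5 members fell and 0 rose, where 10.6% and 10.8% of all genes did. The other 4 were Psmb6 (80.4 ± 8.91 and 65.7 ± 4.91 FPKM, adjusted p = 0.108 without the block and 0.0195 with it), Psmd14 (42.5 ± 1.99 and 35.3 ± 2.70 FPKM, 0.0871 and 0.0213), Psmd8 (183.8 ± 43.2 and 149.6 ± 23.1 FPKM, 0.358 and 0.0157) and the chaperone gene Psmd5 (43.9 ± 2.43 and 37.8 ± 3.22 FPKM, 0.132 and 0.0472). With the block but without number 2 the count was 1. Among the activators Psme1 had a mean of 24.8 ± 3.55 FPKM with Media and 26.4 ± 6.13 FPKM with Hevin, and Psme2b of 84.6 ± 19.0 and 84.0 ± 21.1 FPKM.

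The direct comparison of Hevin with LPS tests the difference between both stimuli and shares its libraries with the comparisons above. In Hevin 27 of 45 members were lower than in LPS and 1, Psmg2, was higher (limma, adjusted p under 0.05), where 19.7% of all genes tested were called lower and 22% higher. The median was -0.37, against 0.02 for all genes. Every Hevin library lay below every LPS library in 25 members and above in 2, which held for 17.5% and 20% of all genes. With upper quartile scaling 22 were lower and 2 higher (17.2% and 26.5% of all genes), with quantile normalization 8 and 2 (15.5% and 21.7%), and without scaling factors 6 and 9 (8.64% and 48%). Under all 4 scalings 5 members were lower: Psmb6 (-0.87 ± 0.10), Psmd14 (-0.74 ± 0.08), Psmc6 (-0.68 ± 0.11), Psmd11 (-0.60 ± 0.10) and Psme2 (-1.07 ± 0.18). Psme2b had -1.14 ± 0.26 (limma adjusted p = 0.00424) and lost its call with quantile normalization (0.0737), and Psmd10 had -0.65 ± 0.13 (0.00185) and lost it without scaling factors (0.0687). Psma6 and Psmd8 had -0.68 ± 0.13 and -0.59 ± 0.16, and lost their calls under quantile normalization and without scaling factors. Psme1 had -0.57 ± 0.19 (0.0278) and was called neither under the other scalings (0.0597 to 0.376) nor without any one of Hevin 1, Hevin 2, LPS 1, LPS 3 and LPS 4 (0.0503 to 0.0789). Psmg2, a chaperone of the α ring, stood at 5.84 ± 0.696 FPKM in Hevin and 3.90 ± 0.757 in LPS (0.49 ± 0.13, adjusted p = 0.0100), and missed the threshold with quantile normalization (0.0530). Without number 2 the counts were 28 and 1. With the block 31 members were lower and 2 higher, where 28% and 29.9% of all genes were, with Psmb1, Psmb2, Psmc3 and Psmd3 added to those lower (just past the threshold to 0.0664 without the block, and 0.0109 to 0.0297 with it, as adjusted p). The second higher was Psmf1 (4.93 ± 0.787 and 3.86 ± 0.268 FPKM, adjusted p = 0.0226).

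Partners of the proteasome outside the member list were read from a list of 40 genes of ubiquitin supply, shuttling, assembly and control, of which 39 were listed and tested. In LPS 12 rose (30.8%) and 2 fell (5.13%), where 13.2% and 12.6% of all genes did, and with the block 19 (48.7%) and 3 (7.69%), where 21.5% and 22.2% of all genes did. With upper quartile scaling the counts were 7 and 4 (17.9% and 10.3%, against 11.6% and 18% of all genes). With quantile normalization they were 1 and 5 (2.56% and 12.8%, against 9.94% and 14.8%), and without scaling factors 2 and 12 (5.13% and 30.8%, against 6.55% and 44.4%). The counts were 6 to 11 and 1 to 3 on leaving out single libraries, with 7 higher without Media 1 or LPS 2 and 6 without Media 4, and with 1 lower without Media 1 or LPS 3. Zfand5, which binds the proteasome and speeds degradation, read 44.6, 40.7, 33.5 and 42.8 FPKM in Media and 108, 123, 86.0 and 79.0 in LPS. The groups lay far apart, and it rose by 1.26 ± 0.18 (limma adjusted p = 3.04e-04), also under every other scaling. Nfe2l2, the regulator of antioxidant genes, rose from 242 ± 25.6 to 382 ± 23.4 FPKM (0.66 ± 0.10, adjusted p = 3.90e-04) and missed the threshold with quantile normalization (0.195). The ubiquitin ligase gene Ubr4 rose by 0.48 ± 0.13, and its call ended without Media 4 (0.0553) and without number 2 (0.0538). Nub1, an interferon-inducible adaptor for NEDD8, rose by 0.45 ± 0.12, and both calls ended with quantile normalization (0.623 and 0.105) and without scaling factors (0.185 and 0.367). Pomp, the chaperone that completes the core, passed narrowly (42.8 ± 4.19 and 50.7 ± 1.34 FPKM, adjusted p = 0.0453). Its call ended with voom on recovered reads (0.0637), with the other scalings, without number 2 (0.129) and without any one library except Media 3 and Media 4.

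In Hevin 1 of the 39 pathway genes rose (2.56%) and 2 fell (5.13%) against Media, near the 4.27% and 3.1% of all genes. With the block they were 1 and 6 (2.56% and 15.4%, against 10.8% and 10.6% of all genes), and without number 2 they were 1 and 0. Ddi2, whose protease cuts and activates the Nfe2l1 product, read 13.3, 10.4, 11.7 and 11.4 FPKM in Media, 19.2, 19.5, 17.6 and 17.3 in Hevin and 10.6, 8.35, 7.51 and 8.62 in LPS. Every Hevin library lay above every other library. It rose in Hevin by 0.61 ± 0.11 (limma adjusted p = 0.00379) and fell by 0.38 ± 0.11 in LPS (0.0199, but 0.0603 without Media 1 and 0.0582 without LPS 3). Nfe2l1 itself read 103.8, 104.5, 123 and 114.5 FPKM in Media and 85.3, 84.2, 93.5 and 90.6 in Hevin, with no overlap (-0.33 ± 0.08, adjusted p = 0.0199). That call ended without Hevin 1, Hevin 2, Media 3 or Media 4 (0.0574 to 0.0742), without number 2 (0.0633) and without scaling factors (0.0775). Against Media in LPS its log2 fold change was 0.15 ± 0.08 (adjusted p = 0.173), but it was called lower with quantile normalization (-0.28, 0.0325, and 0.0028 with the block) and with the block without scaling factors (-0.18, 0.0154). Ipo9, an importin that carries proteasomes into the nucleus, stood at 19.6 ± 1.09 FPKM in Media, 15.5 ± 0.956 in Hevin and 15.5 ± 1.32 in LPS, and fell by 0.32 on the log2 scale in both. Its call in Hevin (adjusted p = 0.0321) ended without number 2 (0.125) and without any one Media library, or Hevin 2, 3 or 4 (0.0587 to 0.0914).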

How the data were processed

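Gene levels were measured by RNA-seq in 12 libraries of mouse microglia. Per the labels' protocols, stranded mRNA libraries were made from 100 ng of RNA and read as pairs of 100 bases. The authors deposited 1 table of FPKM values by gene symbol. The submitters' processing notes name mm10 and, with no role or order, the tools edgeR 3.30.3, R 4.0.0, Subread 1.6.3, Bowtie2 2.3.5.1, featureCounts, Trimmomatic 0.39 and FastQC 0.11.7. The annotation, the use of strand and the treatment of reads with several matches: not given in the sources used here.

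Whole reads were recovered from the FPKM steps: in 100% of 14541 genes all 12 values were whole multiples of 1 read within 0.1 reads, and the recovery was tested on simulated data. The 11242 genes that reached 1 FPKM in 4 or more libraries were fitted together in limma 3.58.1 (R 4.3.3) as log2(FPKM + 1), its trend option on. Benjamini-Hochberg adjustment ran over all of them, and 0.05 was the threshold. Voom on recovered reads was an alternative, which called 19 members higher and 0 lower in LPS against Media. The members and lists were chosen with earlier results of these data known. The main model had no block. Same-numbered libraries deviated together from their group means in 12 of 12 pairs (correlation 0.23 to 0.784). Libraries of numbers 3 and 4 also did so across these numbers (0.435 to 0.528), where the pairs of number 4 had 0.23 to 0.512. The correlations therefore do not separate numbers 3 and 4, and their pairing rests on the shared group numbers in the column names. The blocked value stands beside each member whose call it alters.

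Named with values were the 10 called members with the largest change in each comparison, the activators, the inhibitor, the cutting subunits, the 4 called pathway genes with the largest change for each treatment, Pomp and Nfe2l1. Other members were named after their values were seen. Of the 40 pathway names, Sem1, Ecpas and Ufd1 are listed as Shfm1, AI314180 and Ufd1l. Alternatives were other pseudocounts, filters, scalings, the block, voom, only both groups, no trend and leaving out each library. Chosen after seeing the data were leaving out number 2 and the block with voom, without scaling factors or without number 2. Gene positions and shared words come from GENCODE M21 on GRCm38 (mm10), and promoters from RefSeq. Ratios were compared on the log2 scale by exact permutation with scipy 1.17.1, and figures were drawn with matplotlib 3.10.9.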

Additional observations from a re-analysis of the deposited data

Results flagged for a closer look

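In each of the 3 groups the FPKM of 56 genes (the 45 members tested, the 3 immunoproteasome genes and 8 named pathway genes) was examined for a library far from the other 3, and 8 of 168 groups held one, where chance gives about 1 in 20. Of these, 6 concerned LPS 2. Psmb7 (73.7 FPKM) and Psmd2 (45.2 FPKM) were higher there than in the other LPS libraries, and Psmd3 (44.8 FPKM), Psmb8 (22.8 FPKM), Psmb9 (5.66 FPKM) and Nub1 (31.7 FPKM) were lower. Psmd8 was highest in Media 2 (248.2 FPKM). Psmc3ip was lowest in LPS 1 (0.652 FPKM). The neutrophil markers that set the libraries numbered 2 apart are given with the data above, and their part in these values was not tested.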

How the results depend on the processing

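Most results depended on how the libraries were scaled. In LPS against Media the members called higher and lower went from 21 and 0 to 3 and 1 with quantile normalization (5 and 1 with the replicate block), 4 and 8 without scaling factors (6 and 9 with the block), 14 and 1 with upper quartile scaling (20 and 2 with the block). The members' median went from 0.27 to 0.01, -0.05 and 0.20 under these scalings, with the same values under the block. In Hevin against LPS the members higher and lower went from 1 and 27 to 2 and 8 with quantile normalization (3 and 12 with the block), 9 and 6 without scaling factors (9 and 11 with the block), and 2 higher with upper quartile scaling (4 with the block), with medians of -0.05 and -0.04 in place of -0.37 in the first pair. The pathway genes in that comparison, 2 higher and 21 lower, became 5 and 5 with quantile normalization (9 and 10 with the block) and 11 and 3 without scaling factors (14 and 5 with the block), and 4 higher with the block and upper quartile scaling. In LPS against Media they went from 12 and 2 to 1 and 5 (3 and 10 with the block), 2 and 12 (3 and 13 with the block), and 7 and 4 with upper quartile scaling (5 lower with the block).

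The replicate block, chosen as an alternative, raised counts: in Hevin against Media 5 members and 6 pathway genes were lower in place of 1 and 2, with 5 and 6 under upper quartile scaling, 3 and 5 under quantile normalization, 4 and 5 without scaling factors, and 5 and 7 with voom. With no scaling factors and no block 1 pathway gene was lower there. In LPS against Media the block gave 1 member lower and 19 pathway genes higher, the latter also with voom, and in Hevin against LPS it gave 2 members higher, also with voom. Among the 46 gene results followed, the block brought 7 past the threshold and took 0 below it. Of these, Psmb6, Psmd14, Psmd5 and Psmd8 in Hevin against Media are the members that the block added there. They were put among the results followed after their values were seen, so this tally does not measure what the block does. Fitting only both groups compared gave 6 pathway genes higher and 1 lower in LPS against Media and 1 higher in Hevin against LPS, and no filter on low values gave 2 members higher in Hevin against LPS.

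Without the 3 libraries numbered 2, in Hevin against Media 0 members and 0 pathway genes were lower, the members' median was -0.09, and 1 pathway gene was higher in Hevin against LPS. With the block as well, that median was -0.09, 1 member was lower in LPS against Media and 3 were higher in Hevin against LPS. Leaving out each library in turn gave, in LPS against Media, 15 to 21 members higher, 0 to 1 lower, a median of 0.24 to 0.29, and 6 to 11 pathway genes higher and 1 to 3 lower. In Hevin against Media it gave 0 members higher, 0 to 1 lower, a median of -0.07 to -0.03, and 1 pathway gene higher and 0 to 2 lower. In Hevin against LPS it gave 1 to 3 members higher, 22 to 29 lower, a median of -0.39 to -0.34, and 1 to 2 pathway genes higher and 15 to 21 lower.

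Of the 45 members, 6 changed sign in LPS against Media with upper quartile scaling, 17 with quantile normalization and 23 without scaling factors, among them 0, 5 and 6 of the 21 called. Among the genes followed through every alternative, without scaling factors, with or without the block, Psme3 and Psme4 had -0.12, Pomp -0.08, Psma4 -0.05 and Nfe2l1 -0.18, and with quantile normalization Nfe2l1 had -0.28, a call in both fits. On leaving out single libraries Psmb5 ranged from -0.19 without Media 2 to 0.11 without LPS 4, with 0.01 without Media 1, 0.04 without Media 3 and 0.07 without Media 4. It had -0.23 with quantile normalization and -0.34 without scaling factors. The cause of these changes was not tested. A pseudocount of 0.1 ended 1 call among the 46, that of Psma2, and a pseudocount of 5 changed 0. On simulated data for LPS against Media (10984 genes) the test found 0% of changes at 1.25-fold, 36% at 1.5-fold and 100% at 2-fold, and with the block (10990 genes) 20%, 92% and 100%. Only 50 genes were changed at each fold there, with a spread that was set and not taken from the data. In the real data 1484 genes were called higher and 1413 lower, which eases the adjusted threshold. The real test called Psmd6 at 1.22 times, so these percentages do not give its power.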
